A study of Sus scrofa with 24 samples.

Results

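The mitochondrial ribosomal protein genes of pig back muscle are described here. They were taken as every gene whose symbol begins with MRPL (named for the large subunit of the mitochondrial ribosome) or MRPS (named for the small subunit). The rule found 59 members among 12017 genes, 37 MRPL and 22 MRPS, with 104 of the 22154 listed transcripts. RNA came from the longissimus dorsi, a muscle that runs along the spine, of F1 pigs from 8 Duroc boars and 112 Luchuan sows. Per the labels, 12 animals were high and 12 were low in intramuscular fat (IMF), out of 265 reared on a common diet and farm, and all were slaughtered at about 210 days of age. No animal was treated, each library is 1 animal, and animals are numbered here within a class by order of deposit. Sex, litter and the fat content of each animal are not used here.

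The mitochondrial ribosome translates the few proteins that mitochondrial DNA encodes, which are membrane subunits of the respiratory chain and of ATP synthase. Its ribosomal RNAs come from mitochondrial DNA, whereas all of its proteins are encoded in the nucleus, made in the cytosol and imported. Some of these proteins descend from proteins of the bacterial ribosome and others are found only in mitochondria. Skeletal muscle, and oxidative fibres above all, depends on the respiratory chain subunits that this ribosome makes.

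Of the 59 members, 57 lay on 17 chromosomes of the build Sscrofa11.1, with 8 on chromosome 12 and 7 on chromosome 2. MRPL41 and MRPS2 lay on an unplaced scaffold. Only 3 pairs of members had no more than 500000 bases between them. The closest were MRPS11 and MRPL46 on chromosome 1, on opposite strands with their start sites facing away from each other and 47 bases between them. A single transcript was listed for 34 members, and the other 25 had up to 5. In the RefSeq annotation of Sscrofa11.1, 77 symbols begin with MRPL or MRPS. The members include 58 of these, and the other 19 are not listed under those names in the table.

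Summed FPKM (fragments per kilobase of transcript per mega-fragment) was 351119 to 415572 per library, and depth estimated from the coverage steps was 32.9 to 40.8 M reads (M for mega). Of 9 skeletal muscle fibre markers 9 were measured, with ACTA1, TNNT3 and CKM each above 1000 FPKM in every animal, while MB (myoglobin) averaged only 0.408 FPKM in high and 0.628 FPKM in low IMF. 2 libraries stood apart by how little of their FPKM the top 10 genes held, namely low IMF animal 10 with 18.5% and high IMF animal 7 with 20.2%, where the other 22 had 24.7% or more. The main counts are given with and without low IMF animal 10.

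All 59 members passed the filter of a mean of at least 0.5 FPKM, and 56 were above 0 in every animal. Under their own symbols, their mean levels over the 24 animals spanned 137-fold. MRPL57, a mitochondria-specific protein of the large subunit, was the most abundant at 108 FPKM. MRPL41 followed at 80.0 FPKM and MRPL28, the counterpart of bacterial L28, at 59.2 FPKM. These 3 genes made up 29.4% of the summed FPKM of the 37 MRPL genes. Loci matched to MRPL or MRPS names by position alone, described at the end, are not in these rankings or in the sums. The most abundant MRPS genes were MRPS2 at 22.8 FPKM, MRPS18A at 22.7 FPKM and MRPS24 at 22.1 FPKM. MRPS18A sits in the large subunit despite its name. The 2 least abundant MRPL genes were MRPL12 at 0.788 FPKM and MRPL55 at 0.930 FPKM. With overlapping transcripts that carry no symbol, described below, these 2 were at 6.57 and 13.7 FPKM. The 2 least abundant MRPS genes were MRPS30 at 1.85 FPKM and MRPS7 at 3.77 FPKM. The median member was at 13.8 FPKM among MRPL and 9.81 FPKM among MRPS genes, against 3.30 FPKM over all genes tested.

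Level went with transcript length. Across the 59 members, Spearman's rho between mean FPKM and the length of the most abundant listed transcript was -0.62, given as a description over genes of the same libraries. The 12 members whose main transcript was under 1000 bases had a median of 28.7 FPKM, and the 15 of at least 3000 bases a median of 4.52 FPKM. FPKM already divides by length, so the lower values of long listed transcripts are per kilobase. MRPL12 had the second longest main transcript of the large subunit, at 4390 bases, and MRPS7 had 6476 bases.

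**Figure D1:**
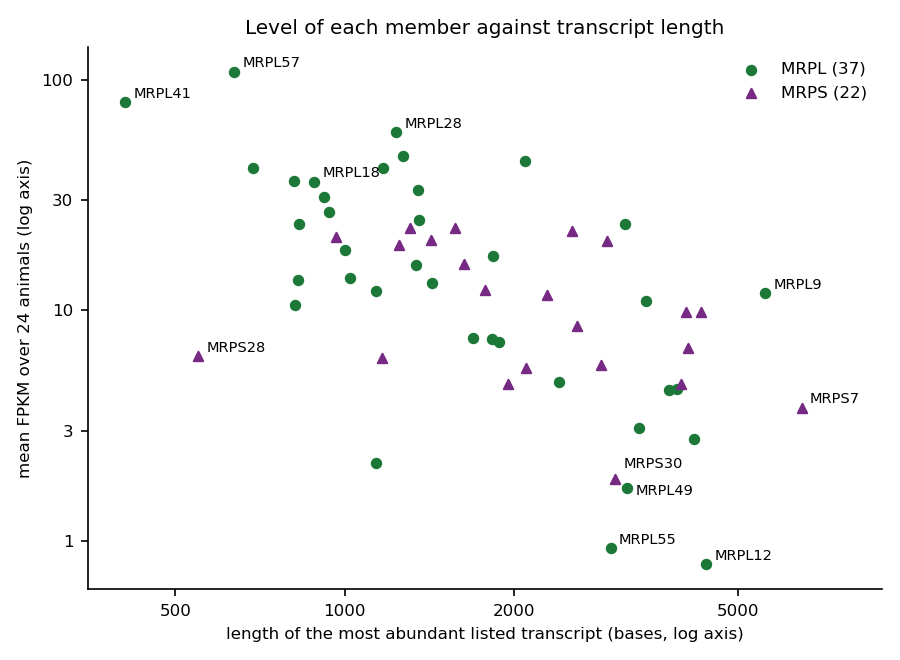
Mean FPKM over 24 animals (log axis) against the length of the most abundant listed transcript (bases, log axis) for 37 MRPL (circles) and 22 MRPS (triangles) genes. Short transcripts such as MRPL41 (408 bases, 80.0 FPKM) lie high and long ones such as MRPL12 (4390 bases, 0.788 FPKM) lie low. With an overlapping transcript that carries no symbol MRPL12 is at 6.57 FPKM, which is not drawn.

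Most members varied little between animals. The median coefficient of variation (CV, the SD over the mean) across the 24 animals was 21.9% for the members and 32.6% over all genes tested. MRPL37 was the steadiest, with a CV of 11.96%. Only 5 members exceeded 50%: MRPL12 at 216%, MRPL42 at 157%, MRPS26 at 87.5%, MRPS28 at 83.6% and MRPS30 at 78.4%.

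The high and low IMF classes were set against each other to ask whether genes of this ribosome follow the fat content of the muscle. No mitochondrial ribosomal protein gene passed the test. The smallest adjusted p was 0.288 for MRPL18 (limma on log2(FPKM + 1), two-sided, Benjamini-Hochberg over 11757 genes), where over all genes 0.0425% were called higher and 0.00851% lower. The members nonetheless lay mostly on one side: 53 of 59 had a positive log2 difference, high minus low, where 73.4% of all genes did. At an unadjusted p under 0.05, 17 members (28.8%) were higher in high IMF, against 6.79% of all genes. In the opposite direction 0 members did so, against 0.893% of all genes. The median log2 difference was 0.16 over the members and 0.08 over all genes tested. FPKM in bulk tissue cannot tell fewer cells of a type from less RNA per cell.

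These counts depended on scaling and on 1 animal. Scaling by the trimmed mean of M values (TMM) moved the median of all genes from 0.08 to -0.0011. With it 43 of 59 members were positive, where 5834 of 11723 genes were, and the median of the members was 0.07. The members at an unadjusted p under 0.05 were then 7 higher, against 2.77% of all genes, and 2 lower, against 2.31% of all genes. The 7 were MRPL10, MRPL16, MRPL18, MRPL34, MRPL38, MRPL4 and MRPL42, and the 2 were MRPS30 and MRPS9. Without low IMF animal 10, 31 members were higher at an unadjusted p under 0.05, against 14.1% of all genes, and the smallest adjusted p was 0.0652, again for MRPL18. Without that animal and high IMF animal 7 together the count was 24, where 1328 of 11666 genes were higher at that level.

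**Figure D2:**
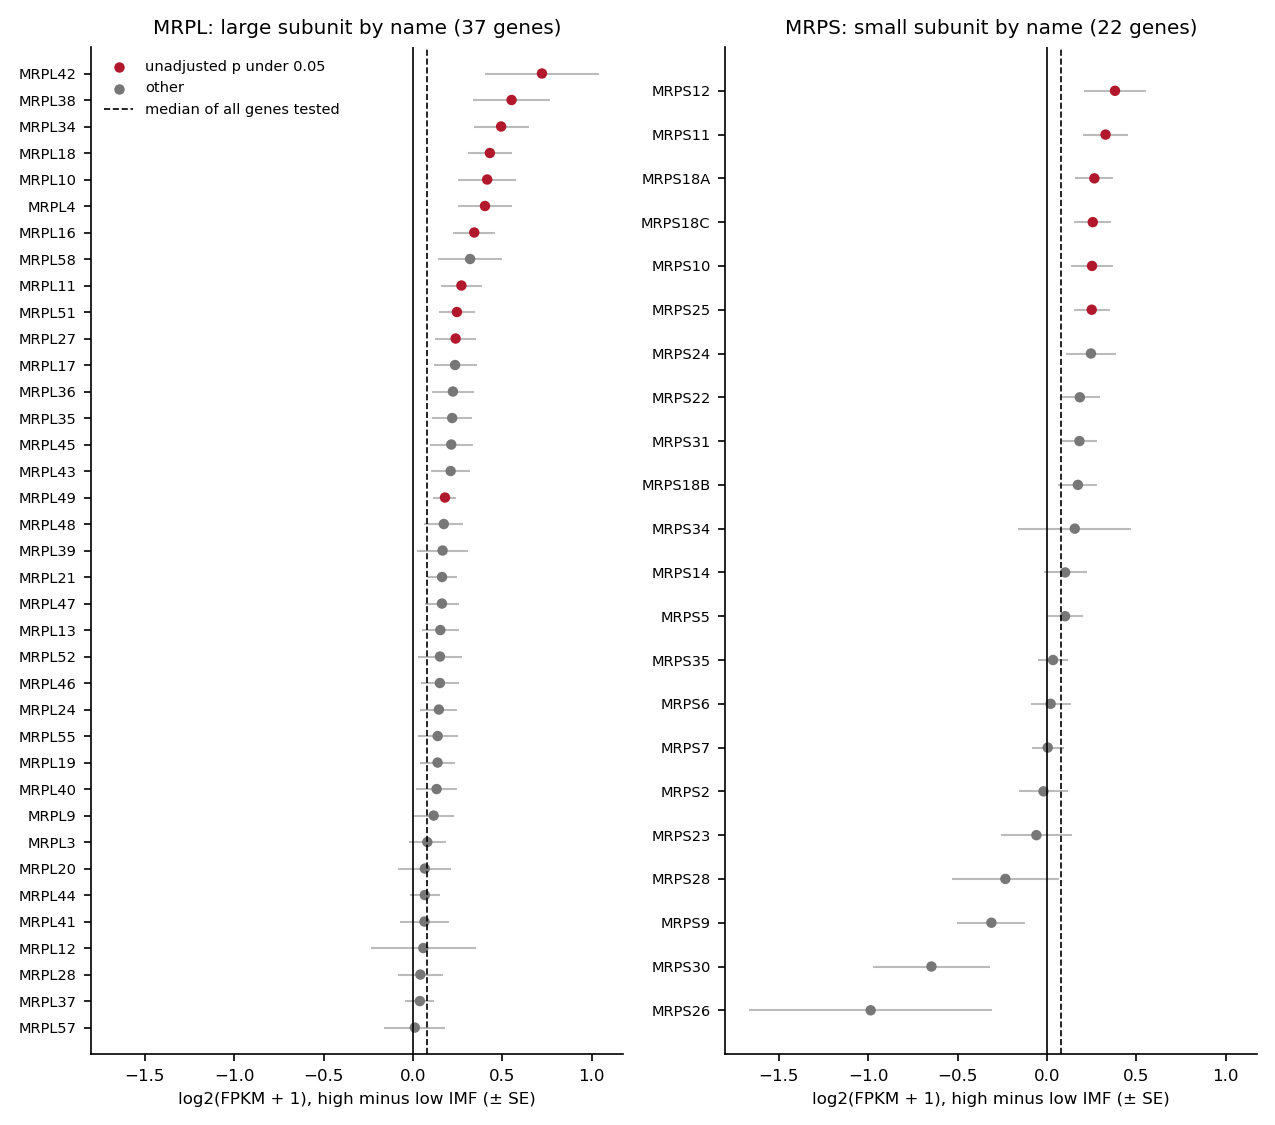
Log2 difference in log2(FPKM + 1), high minus low IMF, with its standard error for each MRPL (left) and MRPS (right) gene; red points have an unadjusted p under 0.05 and the dashed line is the median of all genes tested. All 37 MRPL genes lie above 0, from 0.01 to 0.72, and 6 of the 22 MRPS genes lie below 0.

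Among the MRPL genes 37 of 37 had a positive difference without scaling, where 73.4% of all genes did. With TMM scaling 30 of 37 did, where 5834 of 11723 genes did. MRPL18, the counterpart of a bacterial protein that binds 5S RNA in the central protuberance, had the smallest p of all members. It lies on chromosome 1 from 7579238 to 7590015. Its lowest, median and highest values were 30.8, 41.8 and 50.3 FPKM in high IMF and 18.0, 27.6 and 48.8 FPKM in low IMF. The low IMF median was exceeded by 12 of 12 high IMF animals. In turn 7 low IMF animals lay below the lowest high IMF animal, but the highest low IMF animal overlapped the high class. The means were 41.2 ± 6.30 and 30.9 ± 8.36 FPKM (SD, n = 12 each), a log2 difference of 0.43 (SE 0.125). Without low IMF animal 10 the log2 difference of MRPL18 was 0.49, and with TMM scaling of all animals it was 0.32 (adjusted p = 0.753 by limma).

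MRPL34, the counterpart of bacterial L34, lies on chromosome 2 from 60377901 to 60379020. Its values ran from 20.9 through a median of 28.4 to 47.9 FPKM in high IMF and from 13.6 through 20.3 to 38.7 FPKM in low IMF. Again 12 of 12 high IMF animals exceeded the low IMF median, and 3 exceeded every low IMF animal. The log2 difference was 0.49 (SE 0.154, adjusted p = 0.379 by limma), and 0.38 with TMM scaling. MRPL16, whose bacterial counterpart sits close to the site of peptide bond formation, lies on chromosome 2 from 11689501 to 11694518 and was at 17.6 ± 3.10 against 13.9 ± 3.20 FPKM. Its log2 difference was 0.34, and 11 of 12 high IMF animals were above the low IMF median.

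MRPL49, a mitochondria-specific protein, showed a small but narrow difference at a low level. Its values were 1.503, 1.83 and 2.42 FPKM (lowest, median, highest) in high IMF and 1.33, 1.44 and 1.87 FPKM in low IMF. It lies on chromosome 2 from 7066516 to 7072444. The log2 difference was 0.18 on the log2(FPKM + 1) scale, which understates differences at such levels, and the ratio of the means was 1.22. MRPL4, which lines the tunnel through which the new peptide leaves, was at 8.46 ± 2.46 against 6.13 ± 1.72 FPKM, with a log2 difference of 0.40. It lies on chromosome 2 from 69063674 to 69086335, so 4 of the 5 large-subunit members of smallest p are on that chromosome, which holds 7 members. The adjusted p of MRPL16, MRPL49 and MRPL4 lay between 0.451 and 0.529 by limma.

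The large-subunit members can be grouped by where they sit. In the central protuberance, the crown of the large subunit, 10 genes were measured and 9 were positive, where 73.4% of all genes were. Of these, 4 were higher at an unadjusted p under 0.05 (MRPL18, MRPL27, MRPL38 and MRPS18A), against 6.79% of all genes. The median over the group was 0.16. With TMM scaling 2 of the 10 were higher and 1 lower at that level, against 2.77% and 2.31% of all genes. MRPL38 ranged from 5.08 through a median of 12.6 to 19.1 FPKM in high IMF and from 4.88 through 7.02 to 17.3 FPKM in low IMF. Around the peptide exit, 6 of 6 genes were positive and 0 had an unadjusted p under 0.05, with a median of 0.16. Without low IMF animal 10, 4 of the 6 were higher at that level, against 14.1% of all genes. These genes include MRPL45, which tethers the ribosome to the inner membrane, at 35.5 ± 5.72 against 30.9 ± 7.46 FPKM.

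The stalk, where translation factors bind, was represented by 3 genes. MRPL10, which anchors the stalk, was at 5.59 ± 1.32 against 4.12 ± 1.80 FPKM, with a log2 difference of 0.42. MRPL11, at the stalk base, was at 33.6 ± 5.61 against 28.0 ± 8.06 FPKM, with a log2 difference of 0.27 and 12 of 12 high IMF animals above the low IMF median. MRPL12, the flexible arm of the stalk, was at 0.789 and 0.787 FPKM. MRPL10 and MRPL11 had an unadjusted p under 0.05 and MRPL12 did not (0.0168, 0.0272 and 0.844 by limma).

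For the 3 most abundant large-subunit members the fitted differences were close to 0, with wide errors. MRPL57 was at 110 ± 33.1 against 106 ± 22.9 FPKM, with a range of 48.5 to 161 FPKM in high and 62.5 to 153 FPKM in low IMF, so the classes overlapped throughout. MRPL41 was at 82.0 ± 20.1 against 77.9 ± 14.99 FPKM, and MRPL28 at 60.3 ± 14.2 against 58.0 ± 11.2 FPKM. The log2 differences of MRPL57, MRPL41 and MRPL28 were 0.01 (SE 0.171), 0.06 (SE 0.135) and 0.04 (SE 0.128), and with TMM scaling they were -0.10, -0.05 and -0.07.

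Of the 22 MRPS genes, 16 (72.7%) had a positive difference, where 73.4% of all genes did. At an unadjusted p under 0.05, 6 (27.3%) were higher in high IMF, against 6.79% of all genes. The median was 0.13. MRPS11, in the platform of the small subunit, lies on chromosome 1 from 191306305 to 191321951. Its values were 8.28, 10.5 and 14.7 FPKM (lowest, median, highest) in high IMF and 4.74, 8.36 and 12.1 FPKM in low IMF, and 6 low IMF animals were below every high IMF animal. Its log2 difference was 0.33 (SE 0.126, adjusted p = 0.544 by limma). MRPL46, across the 47 bases, was at 19.0 ± 2.44 against 17.3 ± 4.24 FPKM, with a log2 difference of 0.15. MRPS12, at the decoding centre, was at 23.4 ± 6.88 against 18.2 ± 7.28 FPKM. MRPS10, in the head, was at 13.3 ± 2.29 against 11.13 ± 2.88 FPKM, and the mitochondria-specific MRPS25 at 21.8 ± 3.30 against 18.3 ± 3.30 FPKM. With TMM scaling 13 of 22 MRPS genes were positive, where 5834 of 11723 genes were, and the median of the MRPS genes was 0.03. At an unadjusted p under 0.05, 0 were then higher, against 2.77% of all genes, and 2 lower, against 2.31%.

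The MRPS18 genes show that name and place can differ, since MRPS18A sits in the large subunit and MRPS18B and MRPS18C in the small one. MRPS18A was at 24.9 ± 4.84 against 20.5 ± 3.51 FPKM, with a log2 difference of 0.26. MRPS18C was at 7.59 ± 1.53 against 6.15 ± 0.981 FPKM, also with 0.26, and 6 high IMF animals exceeded every low IMF animal. MRPS18B was at 21.4 ± 2.87 against 19.1 ± 4.34 FPKM, with 0.17. For MRPS18A and MRPS18C the unadjusted p was under 0.05, at 0.0197 and 0.0201, and for MRPS18B it was 0.127, all by limma. Whether the 3 genes differ from one another in this was not tested.

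Members with and without a counterpart in the bacterial ribosome had like medians. Of 33 members with a bacterial counterpart, 30 were positive, 11 had an unadjusted p under 0.05 and the median was 0.16. Of the 26 others, 23 were positive, 6 had an unadjusted p under 0.05 and the median was 0.17. Over all genes 73.4% were positive and 6.79% were higher at that level. With TMM scaling 5 of the 33 were higher and 1 lower, and 2 of the 26 were higher and 1 lower. Over all genes 2.77% were then higher and 2.31% lower. Without low IMF animal 10 the members higher at that level were 19 of 33 and 12 of 26, against 14.1% of all genes. Among the MRPL genes with a bacterial counterpart the median was 0.16 over 21 genes, and among the MRPS genes 0.10 over 12.

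The 6 members with a negative difference were all MRPS genes, and none had an unadjusted p under 0.05. For 2 of them the animals fell into separate levels. MRPS26, a mitochondria-specific protein of the small subunit on chromosome 17 from 32629676 to 32632958, was at or below 5.61 FPKM in 11 animals and between 16.3 and 45.7 FPKM in the other 13, with no animal in between. The low set held 7 high and 4 low IMF animals, and high IMF animals 5 and 12 were listed at 0. The class medians were therefore far apart, at 4.72 FPKM in high and 24.8 FPKM in low IMF, but both classes spanned nearly the whole range. The log2 difference was -0.99 (SE 0.678, adjusted p = 0.738 by limma).

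MRPS30, which sits in the large subunit despite its name, lies on chromosome 16 from 29111973 to 29164792. It was at or below 1.04 FPKM in 10 animals, 7 high and 3 low IMF, and between 2.25 and 3.91 FPKM in the other 14. Its medians were 0.490 FPKM in high and 2.82 FPKM in low IMF, with a log2 difference of -0.65 (SE 0.325, adjusted p = 0.658 by limma). The separation was not between the same animals as for MRPS26: 4 animals were in the low set of both genes, 7 of MRPS26 alone, 6 of MRPS30 alone and 7 of neither. Animals that share the first 9 digits of their identifier, a number whose meaning the labels do not give, could differ too. Low IMF animals 6 and 7 were at 3.03 and 37.9 FPKM for MRPS26, and low IMF animals 2 and 8 at 0 and 3.67 FPKM for MRPS30. High IMF animals 4 and 8 were at 4.44 and 2.89 FPKM for MRPS26 and at 0.0941 and 3.45 FPKM for MRPS30.

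MRPS28, the counterpart of bacterial S1, showed the opposite form, a few animals far above the rest. It was at 12.1 to 21.4 FPKM in high IMF animal 7 and low IMF animals 1, 2, 3 and 10, and at 2.72 to 5.94 FPKM in the other 19. The high values came from a 549-base transcript added by the assembly, listed at up to 19.1 FPKM and at 0 in 3 animals. The reference transcript of MRPS28, of 4126 bases, was at 1.17 to 2.26 FPKM in these 5 animals and at 2.64 to 4.09 FPKM in the others. Its class means were 3.36 ± 0.549 in high and 2.68 ± 0.880 FPKM in low IMF. The log2 difference was -0.23 for the gene and 0.28 with reference transcripts alone. Leaving out high IMF animal 7 gave -0.41 for the gene, leaving out low IMF animal 10 gave -0.09, and leaving out both gave -0.27. MRPS9, MRPS23 and MRPS2 complete the negative members, with log2 differences of -0.31, -0.06 and -0.02. That of MRPS9 was -0.18 without high IMF animal 6. MRPS9, in the head of the small subunit, was at 8.82 ± 3.25 against 10.8 ± 3.08 FPKM.

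For 6 members the table also lists transcripts without a symbol at the same assembled locus and overlapping the member, 17 in all, and for some they carried most of the signal. MRPL42, a mitochondria-specific protein of the large subunit, was at 8.08 to 14.3 FPKM in high IMF animals 4, 9 and 11 and at 0.498 to 1.85 FPKM in the other 21, which gave the largest positive log2 difference of the members, 0.72. With the unnamed transcripts added it was at 15.05 ± 3.62 in high and 11.51 ± 4.19 FPKM in low IMF (SD, n = 12 each). It then ran from 7.56 to 17.9 FPKM in 22 animals and stood at 23.2 and 23.5 FPKM in low IMF animal 10 and high IMF animal 11. The log2 difference of MRPL42 was then 0.39 (adjusted p = 0.536 by limma).

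MRPL12 changed in the same way. Under its own symbol it was at 5.85 and 6.67 FPKM in high IMF animal 3 and low IMF animal 1, and at or below 1.02 FPKM in the other 22. With an overlapping unnamed transcript it was at 6.79 ± 1.45 against 6.35 ± 1.09 FPKM, and its CV fell from 216% to 19.4%. MRPL55, the counterpart of bacterial L31, went from a mean of 0.930 to 13.7 FPKM when 6 unnamed transcripts were added. MRPL38 was then at 16.2 ± 3.55 against 13.5 ± 2.94 FPKM, with a log2 difference of 0.24 in place of 0.55. MRPL18 kept a log2 difference of 0.44 and MRPS34 was at 0.19, in place of 0.16. The low levels of MRPL12 and MRPL55 and the wide difference of MRPL42 and MRPL38 thus rest on which transcripts carry the symbol. Reads were divided between overlapping transcripts by the authors' assembly, and whether the unnamed transcripts also carry reads of neighbouring genes was not tested.

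**Figure D3:**
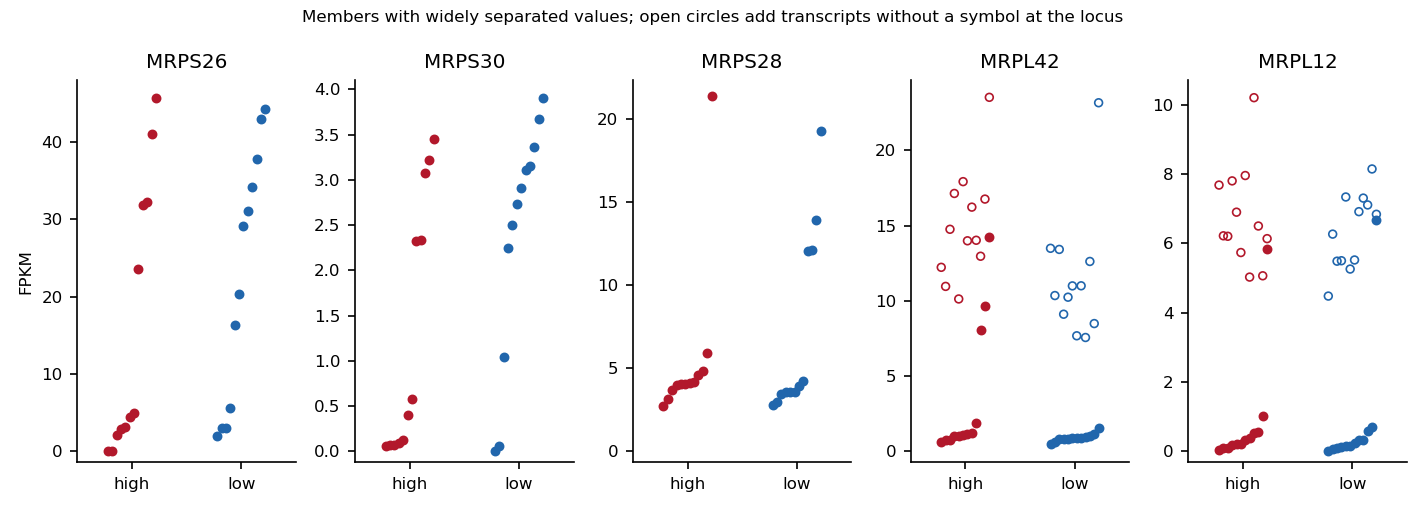
FPKM per animal of the 5 members with a CV over 50%, high IMF in red and low IMF in blue, sorted within a class; open circles (MRPL42 and MRPL12) add transcripts without a symbol at the locus. MRPS26 and MRPS30 fall into a low and a high set in both classes, whereas MRPL42 with the unnamed transcripts is at 7.56 FPKM or more in every animal.

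At the level of single transcripts, 102 of the 104 member transcripts passed the filter. Of these, 85 had a positive difference, where 66.1% of all transcripts did. At an unadjusted p under 0.05, 16 were higher in high IMF, against 5.25% of all transcripts, and 0 were lower, against 1.09%. None passed the adjusted threshold (limma over 21405 transcripts, of which 4 did; smallest adjusted p of a member transcript 0.367). In 11 of the 25 members with 2 or more transcripts, transcripts of 1 symbol lay on opposite sides of 0. No share over all genes is given for this. Among the 11 were MRPL24, MRPL40 and MRPL52, whose log2 differences as genes were 0.15, 0.13 and 0.15. Their negative transcripts were close to 0 against their errors, at -0.0040 (SE 0.221), -0.038 (SE 0.162) and -0.021 (SE 0.193).

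MRPL37, a mitochondria-specific protein and the steadiest member, was the clearest case. As a gene it was at 45.0 ± 4.66 against 43.9 ± 6.06 FPKM. Its reference transcript of 2091 bases was at 39.7 ± 7.24 against 34.3 ± 8.92 FPKM. An assembly transcript of 1890 bases was at 3.88 ± 5.32 against 7.83 ± 5.80 FPKM. That transcript exceeded 5 FPKM in 3 animals of the high class and 7 of the low class, and was listed at 0 in 4 animals. The reference transcript made up 52.1% to 99.9% of MRPL37 per animal.

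MRPS23, a small-subunit protein on chromosome 12, had a comparable exchange. Its reference transcript was listed at 0 in high IMF animal 3 and at 0.382 FPKM in high IMF animal 12, where the assembly transcript was at 11.9 and 10.4 FPKM. In high IMF animal 10 neither was above 2.01 FPKM, and without that animal the log2 difference of MRPS23 was 0.12 in place of -0.06. MRPL58, which frees peptides from stalled mitochondrial ribosomes, was divided over 3 transcripts. An 816-base assembly transcript of MRPL58 was at 6.63 ± 3.18 against 4.31 ± 3.59 FPKM, and the 2 longer ones were at 3.74 and 1.43 FPKM in high and 3.97 and 1.05 FPKM in low IMF. Isoform values are less certain than sums, since shared reads were divided by the assembly.

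**Figure D4:**
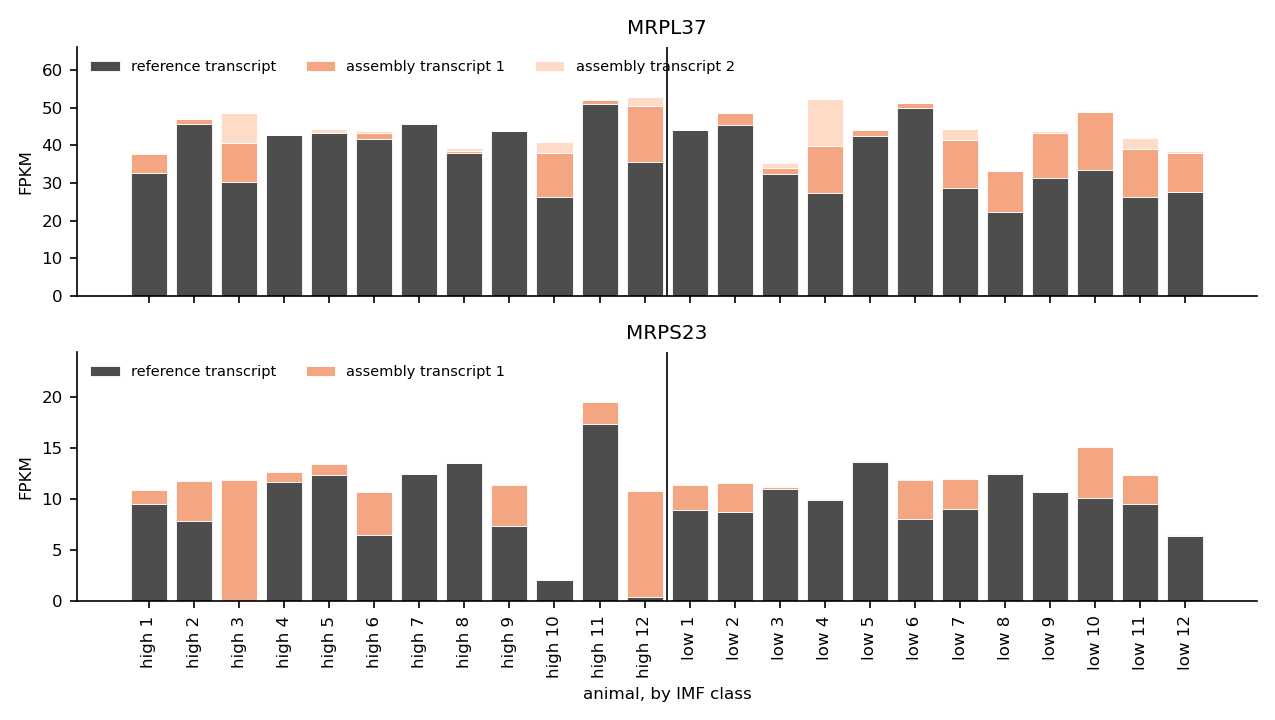
FPKM of the listed transcripts of MRPL37 (top) and MRPS23 (bottom), stacked per animal, high IMF animals left of the line and low IMF animals right of it. The MRPL37 stack stays between 33.2 and 52.9 FPKM while its assembly transcript is above 5 FPKM in 10 animals, and MRPS23 is nearly all assembly transcript in high IMF animals 3 and 12.

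In the authors' deposited table, 12 of the 104 member transcripts had a p-value under 0.05 and were higher in high IMF, where 3.84% of all transcripts were. The authors' deposited table gave 1 member transcript as higher in low IMF, where 2.55% of all transcripts were. That was the 1890-base MRPL37 transcript, with a fold of 2.907 low over high and a p-value of 0.01625. The smallest p-value of a member transcript in the authors' deposited table was 0.002591, for MRPL49. None of the 104 had any of the 3 q-values under 0.05 in the authors' deposited table, with 0.272 the smallest.

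The summed FPKM of the large subunit was 893 ± 140 in high and 788 ± 130 in low IMF (SD, n = 12 each). It ran from 684 through a median of 888 to 1173 in high and from 597 through 793 to 1078 in low IMF. The ratio of the class means was 1.13, and 9 of 12 high IMF animals were above the low IMF median. The small-subunit sum was 272 ± 51.3 against 251 ± 47.6, a ratio of 1.08, with 6 of 12 high IMF animals above the low IMF median. Both differences were smaller than 1 SD of either class, and the classes overlapped over most of their range. With TMM scaling the ratios were 1.05 and 1.001. The sums divide the members by name. MRPS18A and MRPS30 are therefore in the small-subunit sum although they sit in the large subunit. Sums over members were given no test.

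The large-over-small ratio of sums does not depend on the scaling of a library. It was 3.31 ± 0.286 in high and 3.15 ± 0.215 in low IMF, from 2.83 to 3.73 and from 2.87 to 3.51. MRPS26 alone carried most of that gap: without it the ratio was 3.49 ± 0.211 against 3.45 ± 0.0963, and the small-subunit sum had a class ratio of 1.12. Members made up 0.301 ± 0.0433% of summed FPKM in high and 0.272 ± 0.0459% in low IMF.

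**Figure D5:**
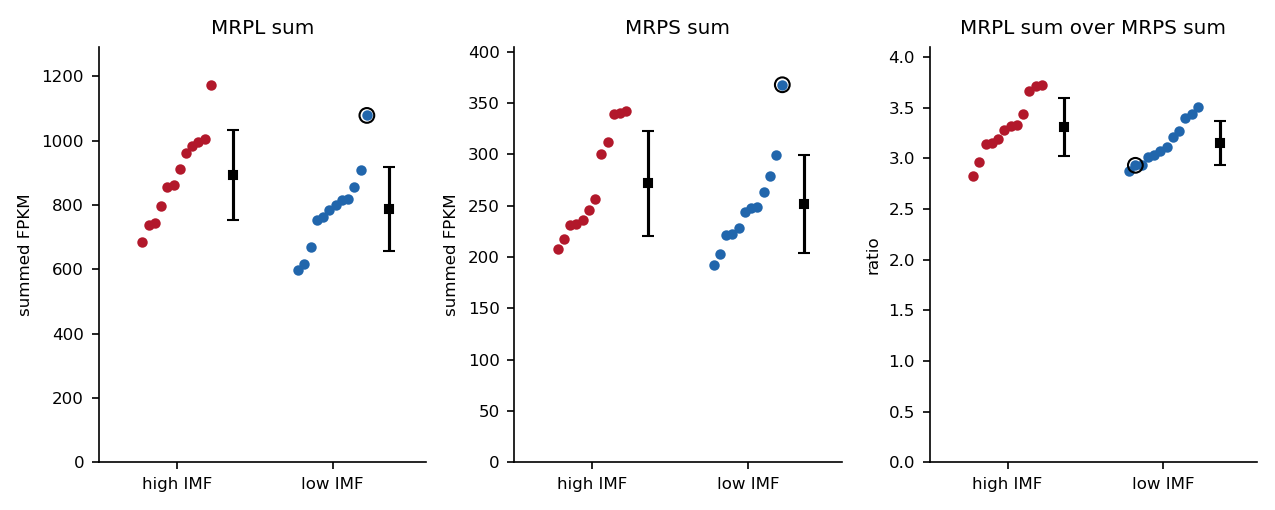
Summed FPKM of the MRPL genes (left), of the MRPS genes (middle) and their ratio (right) per animal, with mean ± SD per class as black squares; the ringed point is low IMF animal 10. The MRPL sum runs from 684 to 1173 in high and from 597 to 1078 in low IMF, and the ringed animal is the highest of the low class in both sums.

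Without scaling, some animals were extreme for many members at once. High IMF animal 11 was the highest of its class for 22 of 59 members and low IMF animal 10 for 35 of 59. High IMF animal 12 was the lowest of its class for 16 members, low IMF animal 9 for 18 and low IMF animal 4 for 16. Low IMF animal 10 thus had the highest unscaled sums of its class, at 1078 for the large and 368 for the small subunit. With TMM scaling its sums were 800 and 273. The highest of the low class were then animal 6 for the large (937) and animal 3 for the small subunit (301). Low IMF animal 10 is also the library whose top 10 genes held the smallest share of FPKM. The part of that share in the members' levels was not tested.

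Markers of other cells differed between the classes as well. Of 9 adipocyte markers 9 were measured and their summed level was 68.6 to 222 FPKM (median 117) in high and 32.9 to 157 FPKM (median 58.6) in low IMF. Of these, 8 were positive, 8 had an unadjusted p under 0.05 and 2 passed the adjusted threshold by limma; ADIG and PPARG were at 0 in some animal. The 9 muscle fibre markers summed to 17966 to 47003 FPKM (median 40368) in high and 20729 to 55883 FPKM (median 45092) in low IMF, and 2 of them had an unadjusted p under 0.05 in the lower direction. Their part in the members' differences was not tested.

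The first 4 digits of the animal identifier take 2 values and divide each class into 6 and 6, and the labels do not say what they mean. In animals with the lower number the median log2 difference of the members was 0.20, with 50 of 59 positive. Over all genes it was 0.13, with 9073 of 11757 positive. In animals with the higher number the median of the members was 0.14, with 48 of 59 positive. Over all genes it was 0.02 there, with 6602 of 11757 positive. The interaction of IMF class with the digits had an unadjusted p under 0.05 for 0 members, against 3.29% of all genes (limma, smallest p of a member 0.0641). Between the 2 sets of animals, 3 members (MRPL47, MRPL58 and MRPL28) had an unadjusted p under 0.05 and 0 an adjusted one, against 6.48% of all genes at the unadjusted level. MRPL47 was at 3.45 FPKM with the higher and 2.74 FPKM with the lower number, MRPL58 at 9.07 and 12.1 FPKM and MRPL28 at 54.2 and 64.1 FPKM.

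Other genes of mitochondrial translation and its products were set beside the members by lists. None of the genes in these lists passed the adjusted threshold, and medians are read beside 0.08 over all genes. The counts are read beside 73.4% of all genes positive and 6.79% higher at an unadjusted p under 0.05 (14.1% without low IMF animal 10). Counts with TMM scaling are read beside 5834 of 11723 genes positive, and 2.77% higher and 2.31% lower at that level. The 4 mitoribosomal proteins under other symbols (DAP3, CHCHD1, AURKAIP1 and PTCD3) were all positive, with a median of 0.12. PTCD3, a small-subunit protein, was at 9.93 ± 1.27 against 9.27 ± 1.34 FPKM. Of 24 factors of mitoribosome assembly and RNA handling, 22 were positive, 6 were higher at an unadjusted p under 0.05 and the median was 0.11. With TMM scaling 16 were positive, 1 was higher and 1 lower at that level, and the median was 0.03. YBEY, an RNA-processing enzyme, had the smallest p of that list, at 40.1 ± 12.5 against 26.8 ± 5.97 FPKM (log2 difference 0.54, adjusted p = 0.233 by limma).

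Of 16 mitochondrial translation factors 15 were positive, with a median of 0.10, and 0 were higher at an unadjusted p under 0.05 (3 without low IMF animal 10). MTIF2, the initiation factor, was lower at that level, at 0.491 ± 0.383 against 0.988 ± 0.536 FPKM. Of 18 mitochondrial aminoacyl-tRNA synthetases 13 were positive with a median of 0.12, and 1, PARS2, had an unadjusted p under 0.05 (3 without that animal). Of 13 genes for copying and transcribing mitochondrial DNA 10 were positive, with a median of 0.10 and 0 at an unadjusted p under 0.05 (2 without that animal). Regulators of mitochondrial biogenesis were nearer to 0, with a median of 0.03 over 13 genes and 1, the nuclear receptor ESRRA, higher at an unadjusted p under 0.05. With TMM scaling 0 of these regulators were higher and 2 lower at that level.

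The nuclear-encoded subunits of the respiratory chain and ATP synthase also lay mostly on the positive side. Of 53 genes, 48 were positive, 21 were higher at an unadjusted p under 0.05 (6.79% of all genes were) and the median was 0.18. With TMM scaling 41 were positive and 5 were higher at that level, and without low IMF animal 10 there were 23. UQCRQ of complex III was at 202 ± 36.1 against 152 ± 32.0 FPKM, with 12 of 12 high IMF animals above the low IMF median (log2 difference 0.41, adjusted p = 0.269 by limma). The 10 listed subunits encoded in mitochondrial DNA, the products of this ribosome, were all positive, with a median of 0.15 and 0 at an unadjusted p under 0.05. COX1 was at 7106 ± 1386 against 6220 ± 1237 FPKM.

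The proteins of the cytosolic ribosome lay lower. Of 56 genes, 36 were positive, 3 had an unadjusted p under 0.05 and the median was 0.01, and with TMM scaling the median was -0.10 with 8 of 56 positive. With TMM scaling the medians were 0.07 for the mitochondrial ribosomal proteins and 0.07 for the nuclear-encoded respiratory chain. Whether the lists differ from one another was not tested.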

How the data were processed

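Libraries of polyA RNA from 24 animals were read as 150-base pairs, per the labels' protocols. FPKM values, 1 for each transcript in each animal, were deposited by the authors in a single table. The unit was inferred from the values, since the headers do not name it. Beside them stand the authors' fold (a ratio of low to high IMF), their p-value and their q-values of 3 kinds, per the file headers, with the method unstated. HISAT2 2.0.5, StringTie 1.3.3 and Sscrofa11.1 are named in the submitters' processing notes. A transcript is listed where at least 19 libraries are above 0, and genes seen less often are not analysed here.

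Values were added up per symbol and chromosome. Differences were tested two-sided with limma 3.58.1 (R 4.3.3) on log2(FPKM + 1), using trend and robust options, for the 11757 genes whose mean reached 0.5 FPKM. Adjustment was by Benjamini-Hochberg over all of them at 0.05. The script was tested on simulated data. Sums, ratios and figures used Python 3.11.15 with numpy 2.4.6 and pandas 2.3.3. Depth was estimated from steps of FPKM times length that fell within 0.05 base of a whole number for 73.3% to 88.1% of low values, and is relative. The table gives no counts, so no interval for counting error is given. Nothing in the labels says more of the replicates than that each is a separate animal.

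The members and lists were chosen with earlier results of these data known, so the members as a group were given no test. Named members were the 6 of smallest p in each direction, the most and least abundant of each subunit, those whose name and place differ, those of the stalk, and those with transcripts on both sides of 0. MRPL38, MRPL42, MRPL45, MRPL46, MRPL47 and the other members named at an unadjusted p under 0.05 were added after their values were seen. The alternatives were scaling by an unweighted trimmed mean of M values (TMM) or by the upper quartile, dropping the filter or raising it to 5 FPKM, adding 0.1 in place of 1 before the log, and leaving out the robust option or weighting the libraries. Others put the identifier digits or the level of the Y-linked EIF1AY into the model, kept 1 animal for each set of 9 leading identifier digits, used reference transcripts alone, or left out each animal. Chosen after seeing the data were the unnamed transcripts, transcripts as units and the small-subunit sum without MRPS26.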

Additional observations from a re-analysis of the deposited data

How the results depend on the processing

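Of 1176 values of 32 named members under 37 alternatives, 1132 stayed on the same side of 0, and 0 passed the adjusted threshold (smallest adjusted p of any member 0.0652). No paired analysis was possible because the labels give the animals no replicate numbers that the classes share. At an unadjusted p under 0.05, TMM gave 7 members higher and 2 lower, against 2.77% and 2.31% of all genes. Scaling by the upper quartile also gave 7 and 2, where 297 of 11734 genes were higher and 294 lower. Leaving out each animal in turn gave 13 to 31 members higher, with 31 without low IMF animal 10, and 0 to 1 lower. Over all genes, of which 11691 to 11773 were tested, these fits gave 616 to 1654 higher and 85 to 118 lower. The 1654 were also without low IMF animal 10. With reference transcripts alone the large-over-small ratio was 3.96 in high and 3.67 in low IMF, and without MRPS26 it was 3.45 in low IMF. The median of the aminoacyl-tRNA synthetases was -0.0050 at a mean of at least 5 FPKM. Log2 differences changed sign for MRPS28 with reference transcripts alone (0.28) and for MRPS2 with 1 animal per shared 9 digits (0.0082). Under the 2 scalings, TMM first, they were -0.070 and -0.079 for MRPL28, -0.047 and -0.057 for MRPL41, -0.10 and -0.11 for MRPL57, -0.084 and -0.091 for MRPS7, and -0.072 and -0.081 for MRPL37. With EIF1AY as a term they were -0.052 for MRPL57, -0.0042 for MRPL12 and -0.020 for MRPS7. With each animal left out they ran from -0.13 to 0.12 for MRPS23, -0.089 to 0.058 for MRPS2, -0.015 to 0.11 for MRPL28, -0.0056 to 0.12 for MRPL41, -0.055 to 0.11 for MRPL57, -0.14 to 0.28 for MRPL12 and -0.025 to 0.056 for MRPS7. Without a change of sign, MRPS28 ran from -0.41 to -0.088, MRPS9 from -0.38 to -0.18, MRPS34 from 0.063 to 0.42 (the highest without high IMF animal 5) and MRPL37 from 0.0044 to 0.063. The cause was not tested. Precision is limited by 12 animals per class, by the unknown true depth and by the division of reads between overlapping transcripts.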

Other observations

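Some mitochondrial ribosomal protein genes appear to be in the table without their symbol. Of the 19 RefSeq names that are not listed, 13 matched a locus without a symbol at 50% or more reciprocal overlap of positions on Sscrofa11.1. This match by position is not the authors' naming and was made after seeing the data. Of these 13 loci, 12 had a positive log2 difference, high minus low IMF, where 73.4% of all genes did. At an unadjusted p under 0.05, 3 were higher, against 6.79% of all genes, and 0 had an adjusted one (limma, smallest adjusted p 0.486). The median was 0.17. With TMM scaling 10 were positive, where 5834 of 11723 genes were, and the median was 0.06. The locus of MRPL33, a small protein of the large subunit, was at 70.5 ± 10.2 in high and 57.3 ± 12.5 FPKM in low IMF (SD, n = 12 each), a log2 difference of 0.31. The locus of MRPL54, a stalk protein, was at 10.1 ± 1.63 against 8.13 ± 1.79 FPKM and that of MRPS17, a small-subunit protein, at 13.5 ± 3.18 against 11.04 ± 2.53 FPKM. The locus of MRPL14 was the negative one, at 49.9 ± 7.86 against 51.8 ± 12.5 FPKM. That of MRPL23 was at 77.8 ± 14.8 against 76.7 ± 16.8 FPKM, above the member MRPL28 (60.3 and 58.0 FPKM). None of the 13 loci is in the subunit sums. The locus of MRPS36, a gene whose protein is now placed in the 2-oxoglutarate dehydrogenase complex, was at 28.7 ± 4.06 against 25.2 ± 3.97 FPKM.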
